A study of Mus musculus with 8 samples.

Results

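A set of 10 genes of radial glia and astrocytes was followed in Math1-lineage cells of the mouse cochlear nucleus: Fabp7, Sox2, Sox9, Vim and Nes, here called progenitor-type, and Slc1a2, Slc1a3, Glul, Aldh1l1 and Aqp4, here called astrocyte-type. They were chosen by symbol, and each of the 10 matched a single Ensembl row of the 39017 genes in the count table. The wild type embryos carried Math1::Cre and a Rosa tdTomato reporter, and the mutant embryos carried the same alleles together with conditional (floxed) alleles of the hindbrain patterning factors Hoxa2 and Hoxb2. The sample titles write the mutant as Hoxa2+/fl; Hoxb2fl/fl, while the design text gives fl/fl for both genes, so the number of Hoxa2 alleles targeted is uncertain. All embryos were C57BL/6 at stage E18.5, and Cre under Math1 (Atoh1), a factor of the rhombic lip, marked the cells that were sorted. Each of the 4 wild type and 4 mutant libraries came from 30000 sorted cells of 3 pooled littermates, with a different mother for each library.

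Radial glia are the stem and progenitor cells that line the embryonic neural tube, and late in gestation many of them turn into astrocytes. Sox2 and Sox9 are transcription factors of the progenitor state, Nes (nestin) and Vim (vimentin) are their intermediate filament proteins, and Fabp7 is a lipid-binding protein of radial glia and young astrocytes. Astrocytes take up synaptic glutamate through Slc1a2 (GLT-1) and Slc1a3 (GLAST), convert it to glutamine with Glul (glutamine synthetase), oxidise folate intermediates with Aldh1l1 and move water through the channel Aqp4. Slc1a3 and Sox9 are held by both cell types, so the division into 2 groups of 5 is a working one.

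Library totals ran from 24789043 to 40050010 counts in wild type and from 26299105 to 51118195 counts in mutant libraries, which are named here by the number in their column heading (wild type 5 to 8, mutant 1 to 4). Hoxb2, a targeted gene, fell from 40.1 ± 4.41 to 5.02 ± 1.49 CPM (counts adjusted for depth with TMM factors; SD, n = 4; edgeR adjusted p = 3.76e-05), whereas Hoxa2 at 43.2 ± 10.99 and 26.7 ± 15.7 CPM did not pass (edgeR adjusted p = 0.506). Genes of neurons and of the Math1 lineage were abundant: Stmn2, a microtubule regulator of growing axons, stood at 485 and Zic1, a factor of rhombic lip derivatives, at 456 CPM per kilobase of gene length in wild type. Mutant 1, wild type 5 and wild type 6 stood apart by their cell cycle genes, whose summed level was 1181, 1578 and 1605 CPM in these libraries and 427 to 775 CPM in the other 5.

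All 10 genes were read in every library, at levels that differed widely between genes. Per kilobase of the deposited gene length, Vim was the most abundant in wild type at 131 ± 34.6 CPM per kb (SD, n = 4), followed by Fabp7 at 102 ± 31.5 CPM per kb. Their ranges over libraries overlapped, and both stood above every other member. Next came Slc1a2 at 27.6 ± 5.30 and Glul at 24.5 ± 1.81 CPM per kb, again with overlapping ranges.

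Sox2 at 13.3 ± 6.30, Slc1a3 at 12.7 ± 1.58, Aqp4 at 11.6 ± 0.716 and Sox9 at 9.09 ± 3.23 CPM per kb formed a middle set in which each range overlapped the next. Nes at 1.31 ± 0.592 and Aldh1l1 at 1.10 ± 0.411 CPM per kb were the lowest and did not differ from each other beyond their spread. Progenitor-type genes thus held both the top positions and a place at the bottom, and so did not differ as a block in level from the astrocyte-type genes. In mutant libraries the order was the same, except that Sox2 at 9.82 ± 7.04 CPM per kb stood below Slc1a3 (10.99 ± 6.31) and Aqp4 (10.7 ± 7.59), with overlapping ranges. The deposited length equalled that of the GENCODE M21 exons for 5 of the 10 members. For Vim it was 2335 bases against 4743, for Aqp4 5082 against 6233 and for Sox2 2457 against 2057. Glul and Aldh1l1 differed by a few bases. The levels per length of Vim, Aqp4 and Sox2, and their places in the order, thus depend on the gene model.

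No member passed the test between mutant and wild type. The edgeR quasi-likelihood test with Benjamini-Hochberg adjustment over 19494 genes called 0 of the 10, where 0.359% of all tested genes passed. Unadjusted p was below 0.05 for 2 members, Slc1a2 and Glul, both lower in mutants, where 12.5% of all genes had such a p in either direction and 5.29% as lower. DESeq2 called 1 member as lower (Glul), where it called 0.86% of genes as lower, and limma-voom called 0, as it did when weighted by sample quality. All 10 fitted log2 fold changes lay below 0, against 51.6% of all tested genes, but members share libraries and are not independent of each other. The number below 0 was 7 without mutant 4 or wild type 6, 8 without mutant 2 or mutant 3, and 10 with any other single library left out. The median was -0.15 for the progenitor-type and -0.23 for the astrocyte-type genes, where the median of all genes was -0.01.

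**Figure D1:**
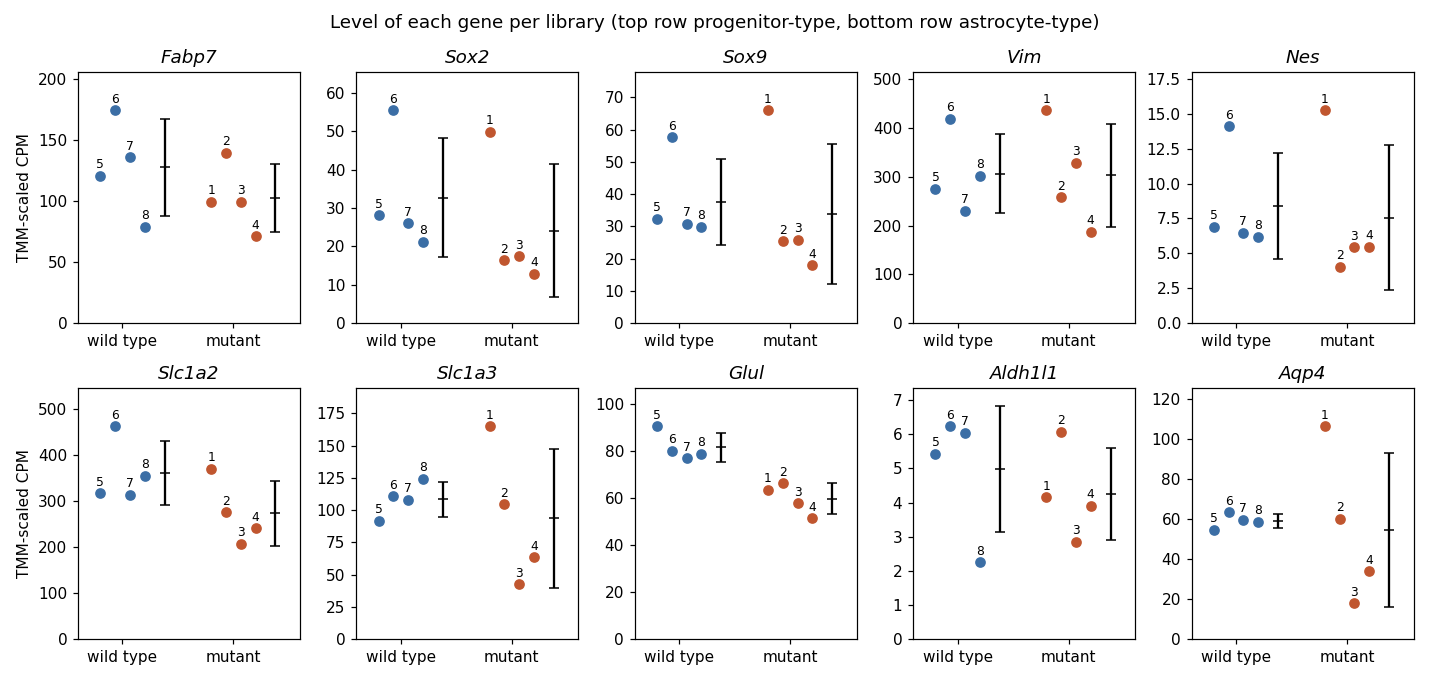
TMM-scaled CPM of each gene in each library, with the library number beside its point, in wild type (blue) and mutant (orange); black bars are the mean and SD over 4 libraries. Glul is the panel in which the groups do not overlap, and mutant 1 and wild type 6 stand above the rest for Sox2, Sox9 and Nes.

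Sox2 (ENSMUSG00000074637, chromosome 3, 34650405 to 34652461, mm10), which maintains neural stem cells, had CPM values of 28.1, 55.5, 26.1 and 21.1 for wild type 5 to 8, and of 49.9, 16.3, 17.4 and 12.8 for mutant 1 to 4. Mutant 1 lay among the wild type values and the other 3 mutant libraries lay below all of them. The log2 fold change was -0.44 (SE 0.479; adjusted p = 0.727 by edgeR). Sox2 lies inside the long noncoding gene Sox2ot, with which it shares no exon base.

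Sox9 (ENSMUSG00000000567, chromosome 11, 112782224 to 112787760), which acts in progenitors and in the switch to gliogenesis, repeated this order. Wild type 5 to 8 gave 32.4, 57.6, 30.7 and 29.8 CPM, and mutant 1 to 4 gave 66.0, 25.4, 25.9 and 17.9 CPM. Mutant 1 was here the highest of all libraries, while mutant 2 to 4 were below the whole wild type group. The fitted log2 fold change was -0.15 (SE 0.411; adjusted p = 0.905 by edgeR).

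The filament gene Nes (ENSMUSG00000004891, chromosome 3, 87971078 to 87980451) had the same pair of high libraries at a lower level. Wild type 5 to 8 held 6.91, 14.1, 6.46 and 6.18 CPM, while 15.3, 4.06, 5.44 and 5.46 CPM were read from mutant 1 to 4. The log2 fold change was -0.15 (SE 0.435; adjusted p = 0.912 by edgeR). The 103 counts of mutant 2, the lowest, gave an exact 95% Clopper-Pearson interval of 3.20 to 4.75 CPM of the unscaled total. The 466 counts of mutant 1 gave 13.98 to 16.8 CPM, so the gap between these mutant libraries was larger than counting error.

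Vim (ENSMUSG00000026728, chromosome 2, 13573927 to 13582826), a filament of progenitors, astrocytes and many non-neural cells, had overlapping groups. The CPM values were 275, 419, 229.6 and 302 for wild type 5 to 8, and 436, 258, 329 and 187 for mutant 1 to 4. The fitted log2 fold change was -0.02 (SE 0.256; adjusted p = 0.984 by edgeR). Mutant 1 and wild type 6 were again the highest, but mutant 3 followed them rather than a wild type library.

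Fabp7 (ENSMUSG00000019874, chromosome 10, 57784881 to 57788450) departed from the other progenitor-type genes. Its CPM was 121, 174, 136 and 79.1 across wild type 5 to 8, and 99.5, 139.6, 99.3 and 71.3 across mutant 1 to 4. Mutant 1 was not high for Fabp7, and mutant 2 was the second highest of the 8 libraries. The log2 fold change was -0.32 (SE 0.247; adjusted p = 0.619 by edgeR) with overlapping groups.

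Glul (ENSMUSG00000026473, chromosome 1, 153899944 to 153909723) was the member whose groups did not overlap. Wild type 5 to 8 held 90.3, 80.1, 76.9 and 78.7 CPM and mutant 1 to 4 held 63.5, 66.1, 57.8 and 51.3 CPM. Every mutant library was thus below every wild type library, a separation in the lower direction that 2.94% of all tested genes had. The means were 81.5 ± 6.03 and 59.7 ± 6.57 CPM (SD, n = 4), and the log2 fold change of -0.45 (SE 0.11) did not pass by edgeR (adjusted p = 0.122). DESeq2 gave -0.43 with an adjusted p = 0.0465. Teddm2, an antisense neighbour that shares 116 exon bases with Glul, had at most 17 counts in any library.

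Slc1a2 (ENSMUSG00000005089, chromosome 2, 102658659 to 102790784), the main glutamate transporter of mature astrocytes, gave 317, 463, 314 and 356 CPM across wild type 5 to 8, and 371, 276, 208 and 241 CPM across mutant 1 to 4. Mutant 1 lay within the wild type range and the other 3 mutant libraries lay below it. The log2 fold change was -0.40 (SE 0.182), with an unadjusted p = 0.0467 by edgeR that became 0.392 when adjusted. The antisense gene Gm13872 shares 189 exon bases with Slc1a2 and had 110 to 270 counts per library, a small part of the 7013 to 14063 counts of Slc1a2.

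Slc1a3 (ENSMUSG00000005360, chromosome 15, 8634124 to 8710764), the transporter that radial glia already hold, was even in wild type and uneven in mutant libraries. The CPM values were 91.5, 111, 108 and 124 across wild type 5 to 8, against 165, 104, 42.5 and 63.6 across mutant 1 to 4. The mutant libraries lay on both sides of the wild type range, and the log2 fold change was -0.21 (SE 0.365; adjusted p = 0.84 by edgeR).

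Aqp4 (ENSMUSG00000024411, chromosome 18, 15389496 to 15410982), the water channel of astrocyte endfeet, had the largest ratio of highest to lowest mutant library among the members. Wild type 5 to 8 held 54.6, 63.5, 59.6 and 58.6 CPM, whereas mutant 1 to 4 held 106, 60.3, 18.0 and 34.0 CPM. The highest mutant library was thus 5.91 times the lowest, against 1.16 times in wild type, while the group means of 54.6 ± 38.6 and 59.1 ± 3.64 CPM (SD, n = 4) were close together. The log2 fold change was -0.12 (SE 0.459; adjusted p = 0.94 by edgeR). Slc1a3 shared this order of mutant libraries, with a highest-to-lowest ratio of 3.88 against 1.36 in wild type.

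Aldh1l1 (ENSMUSG00000030088, chromosome 6, 90486427 to 90600203), a widely used astrocyte marker, was low in all libraries. Wild type 5 to 8 had 5.42, 6.23, 6.03 and 2.25 CPM, and mutant 1 to 4 had 4.16, 6.07, 2.86 and 3.92 CPM. The groups overlapped, and the log2 fold change was -0.23 (SE 0.321; adjusted p = 0.784 by edgeR). Wild type 8 was the lowest, and its 89 counts gave an exact 95% interval of 1.78 to 2.73 CPM, below the 4.95 to 6.52 CPM of wild type 5. Aldh1l1 shares 499 exon bases with the antisense gene Gm15756, which had at most 25 counts, and the strand of the reads is not known.

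**Figure D2:**
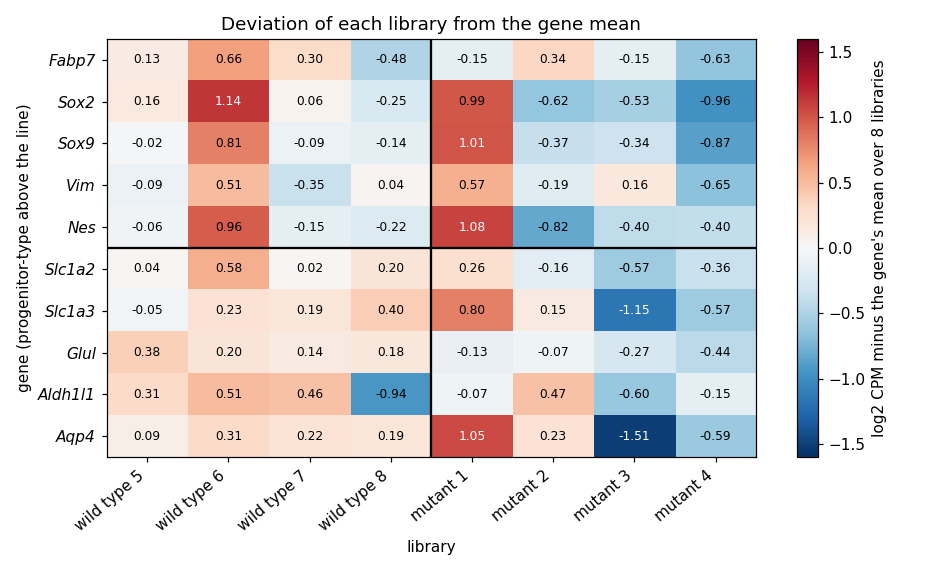
Log2 CPM of each gene (rows) in each library (columns) minus the mean of that gene over the 8 libraries, with red above and blue below that mean. Mutant 1 and wild type 6 are red for Sox2, Sox9, Vim and Nes, and mutant 3 is bluest for Slc1a3 and Aqp4.

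The 2 groups of genes were then compared library by library, as the mean over 5 genes of the log2 deviation from each gene's own mean. The progenitor-type genes were highest in wild type 6 (0.82) and mutant 1 (0.70) and lowest in mutant 4 (-0.70), with the other 5 libraries between -0.33 and 0.02. The astrocyte-type genes had a narrower upper end, at 0.38 in mutant 1 and 0.37 in wild type 6, and were lowest in mutant 3 (-0.82) and mutant 4 (-0.42). Mutant 3 was the library in which the 2 groups differed most, at -0.25 for progenitor-type against -0.82 for astrocyte-type genes. Mutant 2 went the other way, at -0.33 and 0.12.

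The difference, astrocyte-type minus progenitor-type, averaged 0.04 (SD 0.331) in wild type and -0.04 (SD 0.484) in mutant libraries, and ran from -0.45 to 0.26 and from -0.57 to 0.45. The spread between libraries was larger than the distance between the groups, so the 2 kinds of gene were not separated by genotype. The astrocyte-type median of log2 fold changes minus the progenitor-type median was -0.08, and -0.14 with Slc1a3 counted among the progenitor-type genes, both small beside that spread. Across single genes, wild type 6 was among the top 2 libraries for 9 of 10 members and mutant 1 for 7, while mutant 4 was among the bottom 2 for 8 and mutant 3 for 6.

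**Figure D3:**
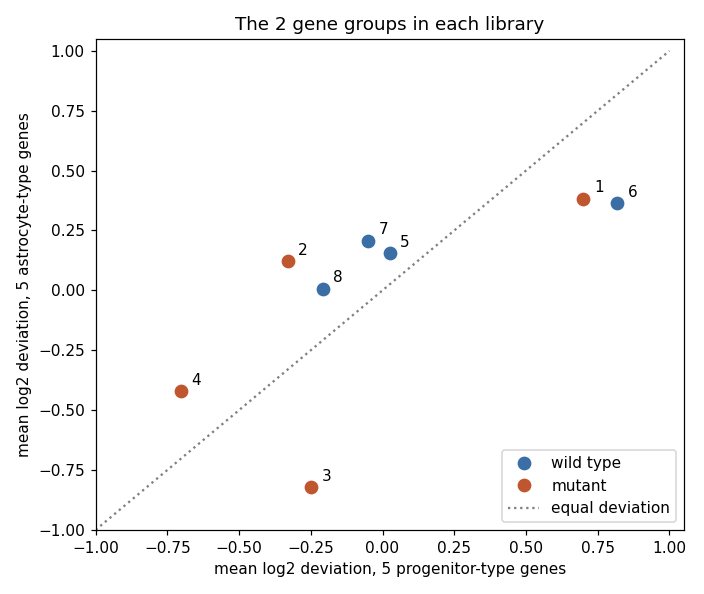
Each point is a library, placed by the mean log2 deviation of the 5 progenitor-type genes (horizontal axis) and of the 5 astrocyte-type genes (vertical axis), with library numbers beside the points. Mutant 1 and wild type 6 lie below the dotted line of equal deviation at the right, and mutant 3 lies below it at the bottom.

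In wild type 5 the progenitor-type and the cell cycle genes parted. Its summed cell cycle level of 1578 CPM was near that of wild type 6 (1605), yet its progenitor-type deviation was 0.02 against 0.82. Mki67, a protein of dividing cells, had 471 CPM there and 454 CPM in wild type 6, with Sox2 at 28.1 and 55.5 CPM. For mutant 1 Mki67 stood at 360.3 CPM and Sox2 at 49.9 CPM. The part of cell division in the member values was not tested.

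Leaving out mutant 1 moved the values of several members, though it changed no call. The mutant and wild type groups then did not overlap for 5 of 10 members, all lower in mutants (Sox2, Sox9, Nes, Slc1a2 and Glul), where 7.57% of all tested genes were lower without overlap. Leaving out any other single library gave 1 such member, Glul. Without mutant 1 the log2 fold changes were -1.07 for Sox2 (SE 0.305), -0.70 for Sox9 (SE 0.238), -0.74 for Nes (SE 0.29) and -0.58 for Slc1a2 (SE 0.155). The smallest edgeR adjusted p were 0.0581 for Glul, 0.0688 for Slc1a2 and 0.0986 for Sox2, so 0 of 10 passed by edgeR, where 2.7% of all genes did. An unadjusted p below 0.05 was then found for 6 members, 3 of each kind and all lower in mutants, where 8.64% of all genes had such a p as lower. With any other single library left out, 1 or 2 members had such a p. Wild type 6 moved Sox2 the other way: its log2 fold change was -0.06 without that library, with Fabp7 at -0.13 and Slc1a2 at -0.26.

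Without mutant 1 the medians were -0.70 for progenitor-type and -0.58 for astrocyte-type genes, against -0.02 for all genes. The fitted values of the other members were -0.63 for Slc1a3 (SE 0.258), -0.66 for Aqp4 (SE 0.338), -0.30 for Fabp7, -0.24 for Vim and -0.22 for Aldh1l1. No label marks mutant 1 as a failed library. When the 3 libraries with high cell cycle genes (mutant 1, wild type 5, wild type 6) were all removed, 0 of 10 members passed by edgeR, where 0.377% of all genes passed as lower. An unadjusted p below 0.05 was found for 4 members, all lower in mutants, where 3.94% of all genes had such a p as lower.

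**Figure D4:**
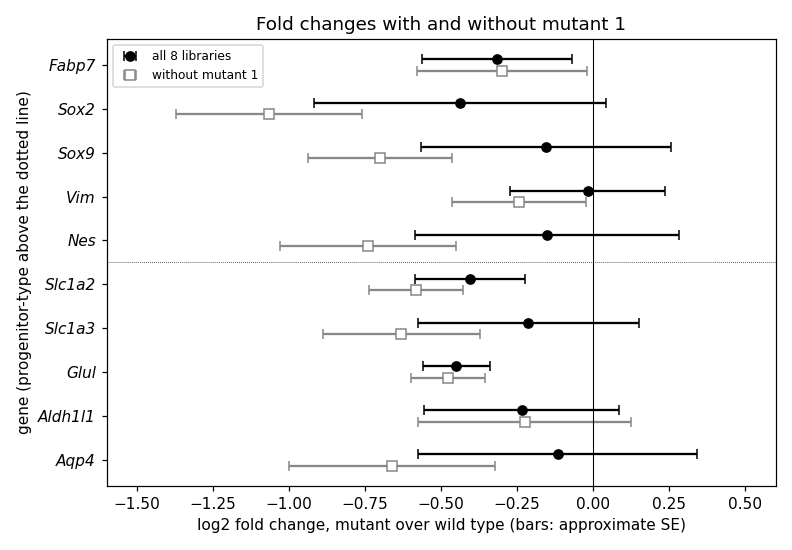
Fitted log2 fold change of each gene, mutant over wild type, with its approximate SE, from all 8 libraries (filled circles) and without mutant 1 (open squares). Sox2 moves from -0.44 to -1.07, while Glul stays at -0.45 and -0.48.

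A wider list of radial glia and progenitor genes held 23 genes, of which 22 were tested and 0 passed by edgeR. An unadjusted p below 0.05 was found for 3, of which 2 were lower in mutants. Of all tested genes, 12.5% had such a p in either direction and 5.29% as lower. DESeq2 and limma-voom, with or without quality weights, also called 0 genes of this list. Fold changes were below 0 for 18 of the 22, against 51.6% of all tested genes, with a median of -0.21. Genes of a list share libraries and are not independent of each other. Pax6, a factor of progenitors that granule cell precursors also hold, was the most abundant per length, at 91.3 CPM per kb in wild type and 79.2 in mutant libraries. It was followed by the adhesion protein Cdh2 (43.8 and 43.0 CPM per kb) and the acyl-CoA-binding protein Dbi (37.7 and 41.1). The smallest p belonged to Ddah1, at 0.76 on the log2 scale (SE 0.256; adjusted p = 0.275 by edgeR), and Prom1, a membrane protein of stem cells, at -0.35 (SE 0.152; adjusted p = 0.38).

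A wider astrocyte list held 32 genes, of which 31 were tested and 0 passed by edgeR. An unadjusted p below 0.05 was found for 7, of which 6 were lower in mutants, against 12.5% of all tested genes in either direction and 5.29% as lower. The number passing was also 0 by DESeq2 and by both forms of limma-voom. Fold changes were below 0 for 23 of 31, against 51.6% of all tested genes, with a median of -0.18. The gliogenic factors Nfib, Nfix and Nfia, which neurons of this lineage also hold, led in level at 128, 115 and 102 CPM per kb in wild type and 106, 105 and 79.4 in mutant libraries. On the log2 scale Nfia differed by -0.36 (SE 0.126; adjusted p = 0.28 by edgeR) and the metallothionein Mt3 by 0.73 (SE 0.236; adjusted p = 0.255). Without mutant 1, 1 gene of this list passed as lower, the astrocyte connexin Gjb6. It had 0, 0 and 1 counts in mutant 2 to 4 and 24, 14, 12 and 3 in wild type 5 to 8. Mutant 1 had 6 counts, and with all 8 libraries Gjb6 did not pass the low-count filter. It passed that filter without mutant 1 only through its wild type counts, so no conclusion is drawn from this call.

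Neither wider list includes any of the 10 members. Mutant 3 was the lowest library for 16 of 31 astrocyte genes and mutant 4 for 7, and the highest was mutant 1 for 11 and wild type 6 for 11. The median log2 deviation of the astrocyte list was -0.66 in mutant 3, -0.38 in mutant 4 and 0.36 in mutant 1. The 22 wider progenitor genes had another order than the progenitor-type members. Mutant 3 was the lowest for 10 of them and mutant 4 for 7, with medians of -0.46 and -0.44, where mutant 4 was the lowest for 4 of the 5 members and mutant 3 for 0. Mutant 1 had a median of 0.21 over the wider progenitor genes, below wild type 6 (0.37) and wild type 5 (0.27), against 0.98 over the 5 members.

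The genes most like each group were found by the root mean square distance between standardised log2 CPM profiles over the 8 libraries, among tested non-members whose average log2 CPM reached 1. For the progenitor-type profile these were Zfp362 (distance 0.199), Pacsin3 (0.207), Arhgef10 (0.21), Sft2d2 (0.234) and Zbtb1 (0.25). Those nearest the astrocyte-type profile included Taf4b (0.148), Tcf12 (0.191), Igsf10 (0.2) and Vwa8 (0.205). None of these nearest genes was on a glial list fixed for this comparison. Among the 30 genes nearest the astrocyte-type profile, of 13834 compared, were Kcnj10 (rank 9) and Apoe (rank 11) of the wider astrocyte list. Tnc of the wider progenitor list (rank 17) and the vessel marker Kdr (rank 16) were there too. The 30 genes nearest the progenitor-type profile held no listed gene. Within the groups Sox2 (0.186) and Sox9 (0.188) lay closest to the progenitor-type profile and Fabp7 farthest (0.831), and Aqp4 (0.394) lay closest to the astrocyte-type profile and Aldh1l1 farthest (0.865). Each profile is the mean of these same genes, so nearness within a group is partly built in. Of the astrocyte-type genes Slc1a2 (0.601) lay nearer the progenitor-type profile than Fabp7, and the others farther. Sox2 (0.663), Sox9 (0.727) and Fabp7 (0.844) lay nearer the astrocyte-type profile than Aldh1l1, and Vim and Nes farther.

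Markers of microglia and of vessels and meninges were low in sum beside the members. The summed level of 11 microglia markers was 27.2 to 39.9 CPM in wild type and 20.8 to 33.6 CPM in mutants. C1qa, a complement gene of microglia, had 2.36 ± 1.19 CPM in wild type and 0.203 ± 0.104 CPM in mutants (SD, n = 4). It passed as lower by edgeR (adjusted p = 0.0115), where 0.359% of all tested genes passed in either direction. The call ended with limma-voom, without mutant 2, without mutant 4 and without the 3 libraries named above. C1qa had 6, 4, 18 and 4 counts in mutant 1 to 4 and passed the low-count filter only through its wild type counts. No conclusion is drawn from its call. The defining marker Tmem119 had 0 to 10 counts per library. The sum of 14 vessel and meninges markers was 14.2 to 43.3 CPM in wild type and 12.7 to 28.0 CPM in mutants, highest in wild type 6. Of 12 tested genes 0 passed by edgeR, and DESeq2 and limma-voom also called 0. An unadjusted edgeR p below 0.05 was found for 1 of the 12, where 12.5% of all tested genes had such a p. The smallest p of that list belonged to Flt1, at -1.02 on the log2 scale (adjusted p = 0.392 by edgeR), and Col1a1, at -0.89 (adjusted p = 0.509).

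Of 12 tested oligodendrocyte lineage genes 0 passed by edgeR and 4 had an unadjusted p below 0.05, with sums of 100.1 to 130.0 CPM in wild type and 101 to 108 CPM in mutants. Their smallest p belonged to Bcas1 (log2 fold change -0.56; adjusted p = 0.229 by edgeR) and to Sox10, which defines that lineage and had means of 1.15 and 0.469 CPM in wild type and mutants (adjusted p = 0.231). Of 9 tested ependyma and choroid plexus genes 0 passed by edgeR (1 at an unadjusted p below 0.05). The sum of the list was 508 to 828 CPM in wild type and 466 to 628 CPM in mutants, most of it from Otx2 (log2 fold change -0.32; adjusted p = 0.44 by edgeR). Otx2 averaged 618 CPM in wild type, and the next of the list, Folr1, 6.49 CPM. Foxj1 and Ttr averaged 3.13 and 1.37 CPM there, so the sum is not a measure of these cell types. Clic6 of that list differed by -1.19 (adjusted p = 0.317 by edgeR) at 3 to 20 counts per library. Of 13 neuron markers 0 passed by edgeR (3 at an unadjusted p below 0.05), with sums of 5647 to 7930 and 5734 to 8164 CPM. Nefm, a neurofilament, differed by -1.07 (adjusted p = 0.146 by edgeR) and Rbfox3, the antigen NeuN, by 0.39 (adjusted p = 0.255). Of 15 cell cycle genes 0 passed by edgeR (2 at an unadjusted p below 0.05) and all 15 fold changes were below 0, with sums of 501 to 1605 and 427 to 1181 CPM. The replication genes Mcm2 and Mcm3 had the smallest p of these, at -0.71 and -0.73 (adjusted p = 0.208 and 0.276 by edgeR). For these 4 lists DESeq2 called 1 gene, Nefm among the neuron markers, and limma-voom 0. The genes of these lists with an unadjusted edgeR p below 0.05 were lower in mutants, except 1 of the 3 neuron markers. Of all tested genes, 12.5% had such a p in either direction, 5.29% had it as lower, and 51.6% had a fold change below 0. Of 10 Math1 lineage genes 1 passed by edgeR and was lower in mutants, where 0.359% of all tested genes passed in either direction and 42 of 19494 as lower. The gene that passed was Nhlh1, whose product is a transcription factor of newborn neurons, with 89.2 ± 5.61 CPM in wild type and 46.3 ± 6.86 CPM in mutants (SD, n = 4; edgeR adjusted p = 0.00603), a call that held in all 18 alternatives. Without mutant 1, Barhl2 of that list, the microglia genes Cx3cr1 and P2ry12 and the cell cycle gene Mcm2 also passed as lower by edgeR. Of all 20124 genes tested in that fit, 2.7% passed in either direction and 208 passed as lower. P2ry12 had 7, 28 and 23 counts in mutant 2 to 4. Cx3cr1 had 9, 8 and 4 counts there, against 45, 73, 68 and 13 in wild type 5 to 8. Cx3cr1 passed the low-count filter only through its wild type counts, so no conclusion is drawn from its call. With all 8 libraries DESeq2 called Barhl2, Cx3cr1, P2ry12 and C1qa, where it called 0.86% of genes as lower. Limma-voom called Barhl2 and C1qa with quality weights, and neither of them without. The part of these cells in the member values was not tested. In bulk libraries fewer cells of a type and less RNA per cell cannot be told apart.

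Of the 10 members, 8 were matched to a promoter sequence of RefSeq (GRCm38.p6), and Sox9 and Aqp4 were not. The 250 bases before each RefSeq start were searched on both strands for the SOX core ACAAT or ACAAAG, the TGGGAA core bound by the Notch effector RBPJ, and TGATNNAT, a site of Pbx-Hox pairs. Since Nes had the profile of Sox2 and Sox9, Slc1a3 stands for the astrocyte-type genes and Fabp7 departed from its group, their sequences are shown 5′ to 3′ without the bases inside annotated exons, with matches in capitals. The regions are chr3:87970843-87971077 (plus strand) for Nes, chr10:57784673-57784880 (plus strand) for Fabp7 and chr15:8710808-8711057 (minus strand) for Slc1a3.
Nes: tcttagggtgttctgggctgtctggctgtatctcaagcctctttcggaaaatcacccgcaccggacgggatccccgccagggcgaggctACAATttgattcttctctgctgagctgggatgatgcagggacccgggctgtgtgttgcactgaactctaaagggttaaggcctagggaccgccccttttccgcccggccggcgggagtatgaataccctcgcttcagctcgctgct
Fabp7: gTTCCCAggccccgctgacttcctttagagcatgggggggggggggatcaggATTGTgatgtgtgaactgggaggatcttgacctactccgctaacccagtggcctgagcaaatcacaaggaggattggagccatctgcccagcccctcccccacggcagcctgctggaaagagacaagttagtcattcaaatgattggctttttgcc
Slc1a3: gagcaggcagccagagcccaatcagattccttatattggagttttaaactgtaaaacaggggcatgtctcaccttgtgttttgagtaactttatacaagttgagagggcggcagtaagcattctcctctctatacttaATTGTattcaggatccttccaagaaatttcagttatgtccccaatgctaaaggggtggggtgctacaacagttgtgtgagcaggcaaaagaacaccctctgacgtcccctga
The capitals mark ACAAT in Nes, TTCCCA and ATTGT in Fabp7 (TGGGAA and ACAAT on the other strand) and ATTGT in Slc1a3 (ACAAT on the other strand).

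ACAAT was found in 3 of 8 member windows (Fabp7, Nes and Slc1a3), where 27.7% of 32851 RefSeq windows of this length held it. ACAAAG was in 1, that of Sox2, where 16.5% held it, and TGGGAA was in 2, those of Fabp7 and Aldh1l1, where 21.6% did. TGATNNAT was in 0 of 8, where 7.68% held it. A SOX core was thus in the windows of Fabp7, Sox2 and Nes among the progenitor-type genes, and of Slc1a3 alone among the astrocyte-type genes. The windows of Vim, Slc1a2, Glul and Aldh1l1 held none. For Vim, Slc1a2 and Aldh1l1 the RefSeq window lay wholly inside the gene span given above. It was thus not the region before the GENCODE start of these genes. Slc1a3 is held by radial glia too, and so few windows cannot tell the 2 kinds of gene apart.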

How the data were processed

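RNA from sorted Math1-lineage cells was made into libraries from 2 ng of total RNA with poly-A and random primers and 14 PCR cycles, and the 8 libraries were pooled on 3 lanes, per the labels' protocols. The authors deposited raw read counts per Ensembl gene with a gene length (per the file headers, width). The submitters' processing notes name bcl2fastq 1.8.4 and the build mm10; the aligner, counter and annotation are not given in the sources used here. Column headings gave the group but not the replicate number of the titles. No 2 libraries agreed within sampling noise (lowest chi-square per gene 16.5).

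After filterByExpr and TMM scaling, genes were tested with the edgeR 4.0.16 quasi-likelihood F test (robust) in R 4.3.3, with a Benjamini-Hochberg adjusted p below 0.05 over 19494 genes. SEs are approximate, taken as |log2 fold change| over the root of F. Alternatives used limma 3.58.1 and DESeq2 1.42.0. The test was checked on simulated data. Positions are those of GENCODE M21, on the same build. Deviations use log2 CPM with a prior count of 2. Intervals cover counting error only, since PCR copies are not independent molecules. The members and lists were chosen with earlier results of these data known. Named genes were all members, the targeted genes, members of each further list that passed or else the 2 with the smallest p, the 2 or 3 most abundant per length of each list (printed in full only for the 2 wider glial lists), and the 5 genes most like each profile, 1 of which is not reported here. Mki67, Gjb6, Tmem119, the listed genes further down the likeness order and, where a list's level is described, other single genes were named after their values were seen.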

Additional observations from a re-analysis of the deposited data

Results flagged for a closer look

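Within groups of 4 libraries, the gap between the most extreme library and its nearest neighbour exceeded 0.829 of the group's range in 5 cases among 20 groups examined (10 genes in each genotype). Chance flags about 1 in 20 such groups. In mutant 1, Sox2 stood at 49.9, Sox9 at 66.0 and Nes at 15.3 CPM, far above the other 3 mutant libraries. In wild type 6, Sox9 stood at 57.6 and Nes at 14.1 CPM, far above the other 3 wild type libraries. All 5 cases belonged to progenitor-type genes, and these genes share the same libraries, so the cases are not independent of each other.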

How the results depend on the processing

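No paired analysis was possible because the column headings do not carry the replicate numbers of the titles. With the other alternatives, 166 of 180 member fold changes kept their direction and their side of the threshold. Without the low-count filter Vim was at 0.00113, and Aldh1l1 turned to 0.0104 with limma-voom with quality weights and to 0.0391 when the 3 libraries with high cell cycle genes (mutant 1, wild type 5, wild type 6) were removed. With single libraries left out, log2 fold changes ran from -0.70 to 0.13 for Sox9, -0.24 to 0.17 for Vim, -0.74 to 0.21 for Nes, -0.63 to 0.0327 for Slc1a3 and -0.66 to 0.18 for Aqp4. Those of Fabp7 (-0.50 to -0.13), Sox2 (-1.07 to -0.06), Slc1a2 (-0.58 to -0.26) and Glul (-0.50 to -0.38) stayed below 0 in these fits and in the other alternatives. The number of members passing was 0 in 17 alternatives and 1 with DESeq2, and 0 to 0 with single libraries left out. The number of all genes passing, 70, became 214 without the low-count filter, 480 with DESeq2, 233 with quality weights and 171 without the 3 libraries. With single libraries left out it ran from 26 to 544: removing mutant 1 gave 544, mutant 2 gave 33, mutant 3 gave 36, mutant 4 gave 26, wild type 5 gave 36 and wild type 8 gave 32. The difference of medians between the gene groups ran from -0.37 to 0.12. The cause was not tested. Under the 3 other scalings all 10 members stayed below 0 and the levels per length moved by less than 1 SD.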

Other observations

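Among 14063 genes whose average log2 CPM reached 1, the highest mutant library was a median of 1.43 times the lowest, and in wild type 1.34 times. For Aqp4 the mutant ratio divided by the wild type ratio was 5.09, and 0.0853% of these genes had a larger value. For Slc1a3 it was 2.85, and 0.533% had a larger value. For Glul it was 1.10, and 42.2% had a larger value. The spread was wider in mutants for 8 of the 10 members, Fabp7 and Aldh1l1 being the exceptions, and for 61.0% of these genes. With 4 libraries a group the difference in spread was not tested.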
